A study of Arabidopsis thaliana with 10 samples.

Results

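Transcript levels in seedlings of the phyA mutant were compared with those in seedlings of the gun1gun5 double mutant that had received no far-red light. The comparison took both phyA arrays together (phyA_FR and phyA_D) against both gun1gun5_D arrays, chosen by genotype and pretreatment alone, so it used 4 of the 10 arrays of the series. Each array measured RNA from a pool of 300 whole young Arabidopsis thaliana seedlings, with cotyledons, hypocotyl and primary root but no true leaves, on Affymetrix ATH1 arrays, which hold 22810 probe sets. The other 6 arrays were wild type (Col-0) with and without far-red (WT_FR and WT_D) and gun1gun5 with far-red (gun1gun5_FR), 2 of each, and served to estimate the spread and to place the levels.

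The phyA seedlings were of a line labelled as a null mutant of PHYA. The seedlings of phyA_FR received a far-red pretreatment and then white light, and those of phyA_D white light only. The gun1gun5_D seedlings carried mutations in both GUN1 and GUN5 and likewise received white light only. All 4 arrays were listed at 22 °C, in continuous light and without sucrose, although the medium itself was named for 3 of them and not for phyA_D. The labels name no alleles and no accession background for either mutant, so the mutations and a difference in background cannot be told apart. Both WT_D arrays were listed on 1.5% sucrose, and WT_D replicate 2 also with 5 µM norflurazon, a herbicide that bleaches plastids, so levels in WT_D are given only as a reference.

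Phytochrome A is the photoreceptor through which plant seedlings sense continuous far-red light, and seedlings without it grow in far-red much as they do in darkness. GUN1 and GUN5 act in the signalling by which the plastid informs the nucleus of its state, GUN1 as a plastid protein and GUN5 as part of magnesium chelatase, the enzyme at the start of the chlorophyll branch of tetrapyrrole synthesis. Mutants that lack this signalling keep some nuclear photosynthesis genes on when plastids are damaged. The comparison therefore sets seedlings that cannot perceive far-red beside seedlings that can, but have altered plastid signalling and were not given far-red. The probe sets of PHYA, GUN1 and GUN5 were not among those with a gene name here, so the mutated genes were not checked.

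Levels are probe-set intensities as the authors scaled them, and differences are phyA minus gun1gun5_D in log2(intensity + 16), the mean of 2 arrays against the mean of 2, with the standard error (SE) of the linear model fitted with limma. A positive difference means a higher level in phyA. Folds are 2 to the power of this difference and so understate changes of weak signals. For a group with both arrays under 16, the fold is a lower bound, the other group's mean divided by 16. Probe sets are said to pass where the adjusted p, taken over all 22746 that are not array controls, was below 0.05. The labels do not say whether arrays of a group came from separate cultures, so the p-values rest on the spread among these arrays only, and an exact permutation test of 2 against 2 arrays could not go below p = 0.333.

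The arrays of the 2 genotypes were alike in scale. Medians were 39.0 and 39.75 in phyA and 38.55 and 37.6 in gun1gun5_D, and Spearman's rho across probe sets was 0.963 to 0.970 between the genotypes, 0.980 between the phyA arrays and 0.980 between the gun1gun5_D arrays. The ratios of 3′ to 5′ control probe sets, a sign of RNA integrity, were higher on both phyA arrays than on both gun1gun5_D arrays, at 4.25 and 3.65 against 1.91 and 2.16 for actin. For GAPDH they were 1.34 and 1.67 against 1.27 and 1.25. The control for 25S ribosomal RNA read 2444.9 and 2090.2 in phyA and 376.7 and 3003.8 in gun1gun5_D, so here the gun1gun5_D arrays differed from each other more than from phyA. The part of these in the results was not tested.

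In all, 874 probe sets passed (3.84% of those tested), 515 of them higher in phyA (2.26%) and 359 lower (1.58%). The median difference was 0.78 among the higher and -0.67 among the lower, and 0.004 over all probe sets. A difference of 2-fold or more was reached by 150 of the higher and 25 of the lower. A single gene was named for 262 of the higher and 186 of the lower, 398 had no gene in the tables used, and 28 matched several genes. Among genes on chromosomes 1 to 5, the share higher in phyA ranged from 1.59% to 2.19% and the share lower from 1.06% to 1.78%, so no chromosome held most of them.

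The count rested on all 4 compared arrays. Where the 2 groups of arrays do not overlap, leaving out 1 array cannot turn the direction of a difference. Genes said below to have kept their direction all had such groups, so the kept direction is no separate support. They were also chosen for passing on these same arrays, so an unadjusted p under 0.05 that they keep is no separate support either. Without gun1gun5_D replicate 1, 18 probe sets passed in the limma fit, 14 of them higher. Without gun1gun5_D replicate 2, 315 passed, without phyA_D 70 and without phyA_FR 165. The last of these is the comparison at matched pretreatment, phyA_D against gun1gun5_D, where 119 were higher and 46 lower, and 126 of the 165 were among the 874. Leaving out gun1gun5_FR replicate 1 or 2, which enter only the estimate of spread, left 256 and 255. A fit of the 4 compared arrays alone, with 2 residual degrees of freedom, called 3 and none of the 30 most different named genes, while 4400 probe sets had an unadjusted p under 0.05 there and 4812 with all 10 arrays.

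**Figure D1:**
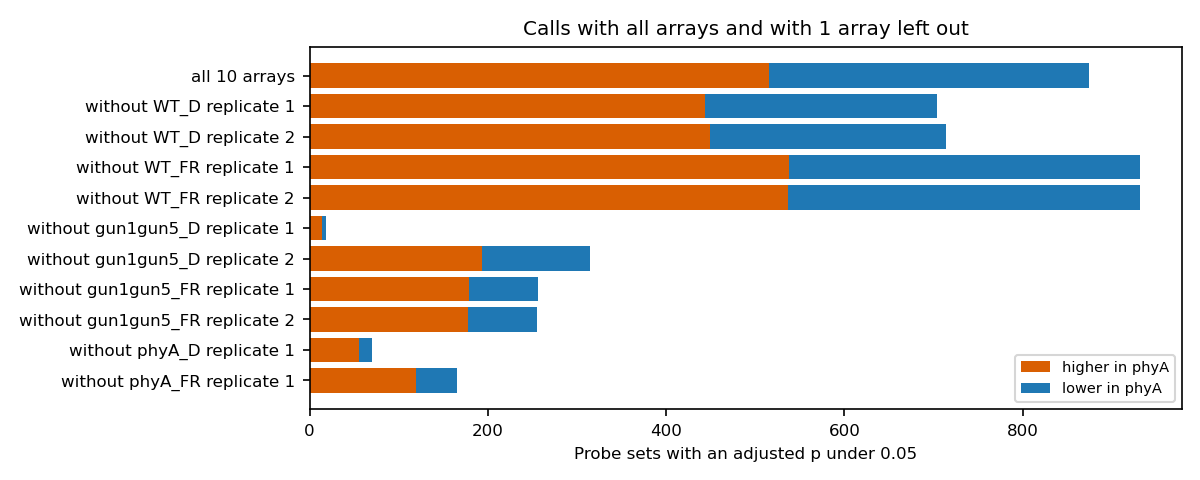
Number of probe sets with an adjusted p under 0.05 (x axis) in the fit to all 10 arrays and in fits without each array in turn (y axis). Orange bars count probe sets higher in phyA and blue bars those lower; the total is 874 with all arrays and lowest, at 18, without gun1gun5_D replicate 1.

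Genes for loosening and remodelling the cell wall were among those higher in phyA by the widest margin. EXPB3, a beta-expansin, a protein that loosens walls, read 244.5 in phyA_D and 172.9 in phyA_FR against 40.2 and 70.4 in gun1gun5_D. Both phyA arrays were above both gun1gun5_D arrays, a difference of 1.67 ± 0.23 (SE), or 3.18-fold (limma adjusted p = 0.015). In WT_D it read 189.8 and 197.9, near phyA, and on the 4 arrays with far-red in wild type and gun1gun5 between 21.2 and 37.2. XTH32, of the enzymes that cut and rejoin xyloglucan, read 496.1 and 351.0 in phyA_D and phyA_FR against 175.9 and 227.5, a difference of 1.00 ± 0.22 (limma adjusted p = 0.0468). Wild type without far-red was higher still for this gene, at 545.5 and 610.0, and the arrays with far-red in wild type and gun1gun5 read 37.6 to 102.5. EXPA20, an alpha-expansin, differed by 0.87 ± 0.16, and XTH19, under 16 on both gun1gun5_D arrays, was at least 1.46-fold higher in phyA.

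Pectin methylesterases, which remove methyl groups from wall pectin, showed the same direction. ATPMEPCRD read 538.8 in phyA_D and 396.1 in phyA_FR against 127.4 and 186.6 in gun1gun5_D, and the groups did not overlap. The difference was 1.49 ± 0.26, or 2.81-fold (limma adjusted p = 0.0269), and the level in WT_D was 790.9 and 548.7. On the arrays with far-red in wild type and gun1gun5 it was far lower, at 2.3 to 14.7. ATPMEPCRB read 45.9 and 61.7 against 13.0 and 17.0, a difference of 1.16 ± 0.17. PMEPCRF read 241.9 and 160.5 against 67.9 and 109.2, a difference of 1.06 ± 0.22. For both, the lower phyA array stood above the higher gun1gun5_D array.

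Of 29 probe sets of expansins and xyloglucan endotransglucosylases, 4 were higher in phyA (13.8%, against 2.26% of all probe sets) and none lower, with a median difference of 0.10. The 2 groups of arrays did not overlap for 15 of the 29, against 49.8% of all probe sets. Of the 4 pectin genes on their list 2 were higher (50%, against 2.26% of all probe sets) and none lower, with a median of 0.66. ATPMEPCRD was not matched to that list by its name. Nor was AT3G48950, of the pectin-lyase-like type, which passed as lower in phyA (-1.06 ± 0.13). Members that did not pass included XTH18, with a difference of 0.74 ± 0.21 (limma adjusted p = 0.0845), and EXPA8, where the groups overlapped at 162.7 and 66.3 in phyA against 38.3 and 95.6; these were chosen after their values were seen. Among the 7 wall genes that passed, none did so without gun1gun5_D replicate 1 (limma adjusted p of 0.081 to 0.218) or without phyA_D (0.057 to 0.187), while all 7 kept their direction and an unadjusted p under 0.05. Without gun1gun5_D replicate 2, 4 of the 7 passed (adjusted p of 0.03 to 0.105), and without phyA_FR only EXPB3 did (0.041 to 0.124). Without either gun1gun5_FR array, 4 of the 7 passed (0.036 to 0.077), and without any 1 of the 4 wild-type arrays the 5 other than XTH32 and PMEPCRF (0.02 to 0.064). With a pseudocount of 1, ATPMEPCRD and XTH19 did not pass (up to 0.09), without a variance trend XTH32 and PMEPCRF did not (up to 0.0572), and with 6 groups XTH32 did not (0.0507).

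**Figure D2:**
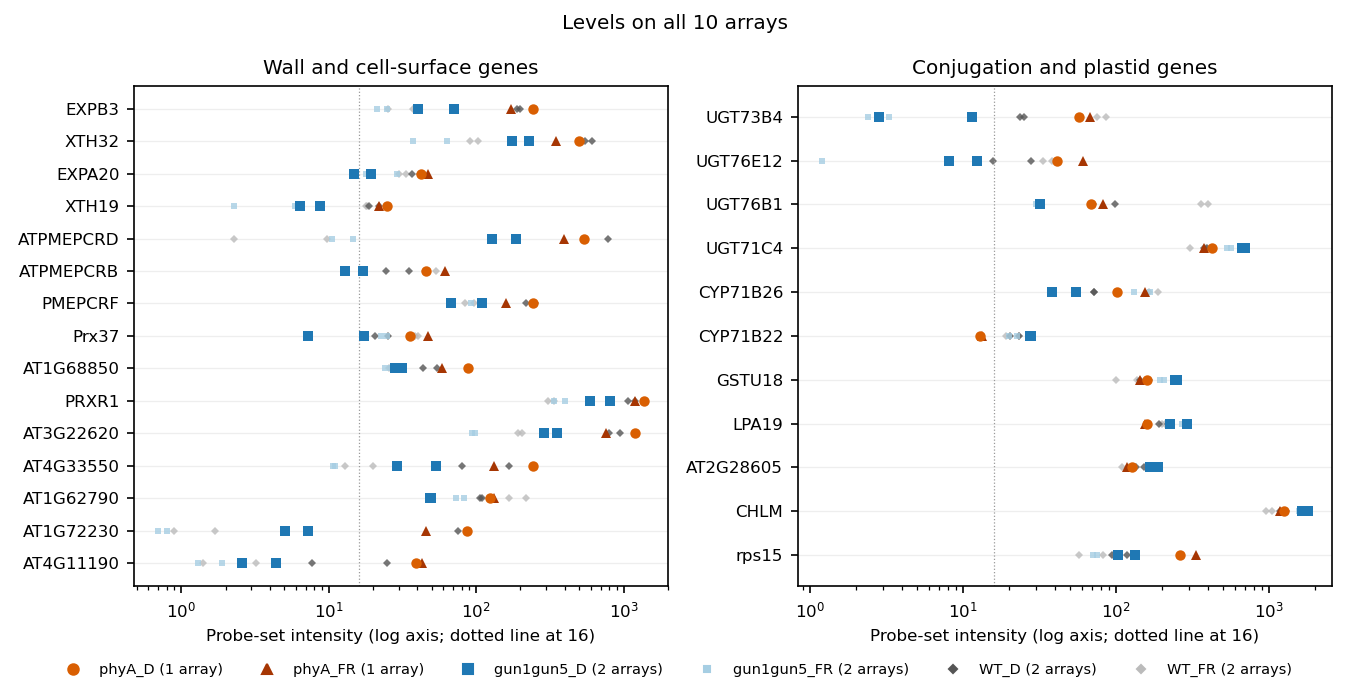
Probe-set intensity on a log axis for genes of the cell wall and cell surface (left) and of conjugation and the plastid (right), each point 1 array. Orange circles and dark triangles are phyA_D and phyA_FR, large blue squares gun1gun5_D, and small symbols the other arrays; EXPB3 reads 244.5 and 172.9 in phyA and 40.2 and 70.4 in gun1gun5_D.

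Proteins of the cell surface and peroxidases of the wall were also among the genes higher in phyA. AT3G22620, a lipid-transfer-type protein, read 1203.6 in phyA_D and 758.8 in phyA_FR against 286.7 and 354.3 in gun1gun5_D, with WT_D at 943.6 and 791.1. The arrays with far-red in wild type and gun1gun5 read 93.2 to 204.7. Both phyA arrays and both WT_D arrays stood above gun1gun5_D, and the difference between phyA and gun1gun5_D was 1.54 ± 0.20, or 2.90-fold (limma adjusted p = 0.0127). A second protein of this type, AT4G33550, differed by 1.81 ± 0.36 at 244.7 and 131.9 against 29.2 and 53.2, and AT1G62790 by 1.15 ± 0.13 at 125.0 and 131.7 against 48.4 and 49.3. AT1G62790 was below all 6 other arrays on all 4 gun1gun5 arrays, at 48.4 to 83.4.

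AT1G72230, of the copper-binding cupredoxins, read 86.6 in phyA_D and 45.5 in phyA_FR against 5.1 and 7.2, at least 4.13-fold higher in phyA (limma adjusted p = 0.011). WT_D lay near phyA_D at 86.7 and 75.2, and the 4 arrays with far-red in wild type and gun1gun5 read 1.7 or less. AT4G11190, of the dirigent family that steers the coupling of lignan precursors, was at least 2.56-fold higher, at 39.0 and 43.0 against 2.6 and 4.4. Here the phyA arrays stood above all 8 others, of which the highest was WT_D replicate 1 at 24.9.

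Class III peroxidases are secreted enzymes that cross-link or loosen wall polymers. PRXR1 read 1372.5 and 1193.3 in phyA_D and phyA_FR against 594.2 and 815.1, a difference of 0.86 ± 0.16 (limma adjusted p = 0.0304), with no overlap. Prx37 differed by 1.03 ± 0.19 and AT1G68850 by 0.95 ± 0.17. These 3 were higher and none lower of 49 peroxidase probe sets (6.12%, against 2.26% of all probe sets), and the median of the list was 0.16. Of 32 lipid-transfer proteins on the list, AT1G62790 was higher and AT2G15325 lower (3.12% each, near the 2.26% and 1.58% of all probe sets), with a median of 0.05; AT3G22620 and AT4G33550 were not matched to it. AT2G15325 read 2.1 and 2.3 in phyA against 7.0 and 7.0, so no fold is given for it.

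Of these 8 surface and peroxidase genes that were higher, none passed without gun1gun5_D replicate 1 (limma adjusted p of 0.061 to 0.181), although all 8 kept their direction and an unadjusted p under 0.05. Without gun1gun5_D replicate 2, 5 passed (0.032 to 0.094), without phyA_D 3 (0.037 to 0.155) and without phyA_FR 4 (0.004 to 0.125). AT1G72230, AT3G22620 and AT1G62790 passed in all of the last 3 fits. Without either gun1gun5_FR array, 4 of the 8 passed (0.024 to 0.069).

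Enzymes that attach sugars to small molecules were higher in phyA more often than lower. UGT73B4, which glucosylates phenolic compounds, read 57.5 in phyA_D and 67.7 in phyA_FR against 2.8 and 11.4 in gun1gun5_D, and 3.3 and 2.4 in gun1gun5_FR. All 4 gun1gun5 arrays lay below all 6 others, of which the lowest was WT_D at 23.5, and phyA was at least 3.91-fold above gun1gun5_D (difference 1.79 ± 0.18, limma adjusted p = 0.00786). UGT76E12 showed the same order, at 41.1 and 60.8 against 8.1 and 12.3, at least 3.18-fold higher. UGT76B1, which glucosylates isoleucic acid and salicylic acid, read 69.0 and 81.9 against 31.7 and 31.7, a difference of 0.94 ± 0.15.

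In the same family UGT73B5 and UGT87A2, chosen after their values were seen, were higher by 0.72 and 0.51, and UGT71C4 was lower, at 422.0 and 378.2 against 699.7 and 662.0 (-0.75 ± 0.12, limma adjusted p = 0.0238). That made 5 higher (9.62%, against 2.26%) and 1 lower of 52 glycosyltransferases, with a median of 0.04. Among 25 cytochrome P450s, oxidising enzymes of many pathways, CYP71B26 was higher (101.2 and 154.1 against 54.4 and 38.3, 1.19 ± 0.20). CYP71B22 was lower and under 16 on both phyA arrays, at 12.9 and 13.2 against 27.2 and 27.7, at least 1.72-fold. Each was 4% of the P450s, against 2.26% of all probe sets higher and 1.58% lower. Of 14 glutathione transferases GSTU18 was lower (160.4 and 142.6 against 242.1 and 248.9, -0.64 ± 0.14) and none higher. That was 7.14% of the list, against 1.58% of all probe sets. At an unadjusted p under 0.05 in limma, 1 was higher and 1 lower.

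Of these 7 genes UGT73B4 passed without any 1 of the 4 compared arrays, at limma adjusted p of 0.0107 to 0.0439 and differences of 1.52 to 2.06. The others passed in none of these fits, except CYP71B26 without phyA_D. The adjusted p over the 7 reached 0.174 without gun1gun5_D replicate 1, 0.129 without replicate 2, 0.143 without phyA_D and 0.167 without phyA_FR. Without either gun1gun5_FR array, UGT71C4, CYP71B22 and GSTU18 did not pass (up to 0.0824), nor CYP71B22 and GSTU18 without a WT_D array (up to 0.0574). GSTU18 also did not pass with quantile normalization (0.0573), without a variance trend (0.054) or with the replicate number as a block (0.0529). With 6 groups CYP71B22 and GSTU18 did not pass (up to 0.0617), and with a pseudocount of 1 UGT76E12 did not (0.0678).

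Several of the genes with the widest differences belonged to none of the lists. AT5G27760, of a hypoxia-responsive family, read 331.7 in phyA_D and 351.2 in phyA_FR against 106.6 and 122.3 in gun1gun5_D, a difference of 1.46 ± 0.10 (limma adjusted p = 0.00117). It was below all 6 other arrays on all 4 gun1gun5 arrays, at 106.6 to 169.5, and WT_D and WT_FR read 204.2 to 449.1. AT1G28600, a GDSL-type lipase, showed the same order, at 288.8 and 305.2 against 95.9 and 91.9, and 122.4 and 108.9 in gun1gun5_FR (1.51 ± 0.12, limma adjusted p = 0.00289). Another GDSL-type lipase, AT1G29670, stood on both phyA arrays above all 8 others, at 491.0 and 573.1 against 135.5 and 238.1 (1.48 ± 0.32).

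AT5G60250, of the RING zinc-finger type, read 70.2 and 64 in phyA and no more than 21.7 on any other array, with 7.3 and 5.4 in gun1gun5_D. It was at least 4.19-fold higher in phyA than in gun1gun5_D (1.89 ± 0.20, limma adjusted p = 0.0086). AT1G09500, related to alcohol dehydrogenases, had the largest difference of a named gene, 1.99 ± 0.36 (3.97-fold, limma adjusted p = 0.0304), at 93.2 and 128.6 against 20.1 and 11.8. Its WT_D arrays read 23.6 and 81.6, so they spanned most of the gap between the mutants.

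AT2G38870, a protease inhibitor of the potato inhibitor I type, read 156.6 and 225.3 in phyA against 35.1 and 58.9 (1.72 ± 0.29), with 39.3 and 46.1 in gun1gun5_FR and 112.5 to 602.0 in wild type. All 4 gun1gun5 arrays were below the rest. AT3G02480, of the late embryogenesis abundant (LEA) type, differed by 1.46 ± 0.20 at 165.6 and 110.3 against 38.3 and 39.6, again with all 4 gun1gun5 arrays lowest. AT4G02090, of no function known here, differed by 1.81 ± 0.39 at 76.5 and 80.9 against 20.2 and 4.2 (limma adjusted p = 0.0433).

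AT5G27760 and AT1G28600 passed without any 1 of the compared arrays, with differences of 1.37 to 1.54 and 1.47 to 1.55. Of these 8 genes, 2 passed without gun1gun5_D replicate 1 (limma adjusted p of 0.015 to 0.209 over the 8), 5 without replicate 2 (0.01 to 0.144), 3 without phyA_D (0.021 to 0.149) and 4 without phyA_FR (0.012 to 0.161). Without either gun1gun5_FR array 4 passed, AT5G60250, AT1G28600, AT3G02480 and AT5G27760 (0.008 to 0.082 over the 8). AT1G29670 did not pass without a WT_D array (0.0642 and 0.064), and AT4G02090 not without a WT_FR array (0.0581 and 0.0582). Both also did not pass without a variance trend (up to 0.0563) or with 6 groups (up to 0.0653), and AT1G29670 not with quantile normalization (0.0512).

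**Figure D3:**
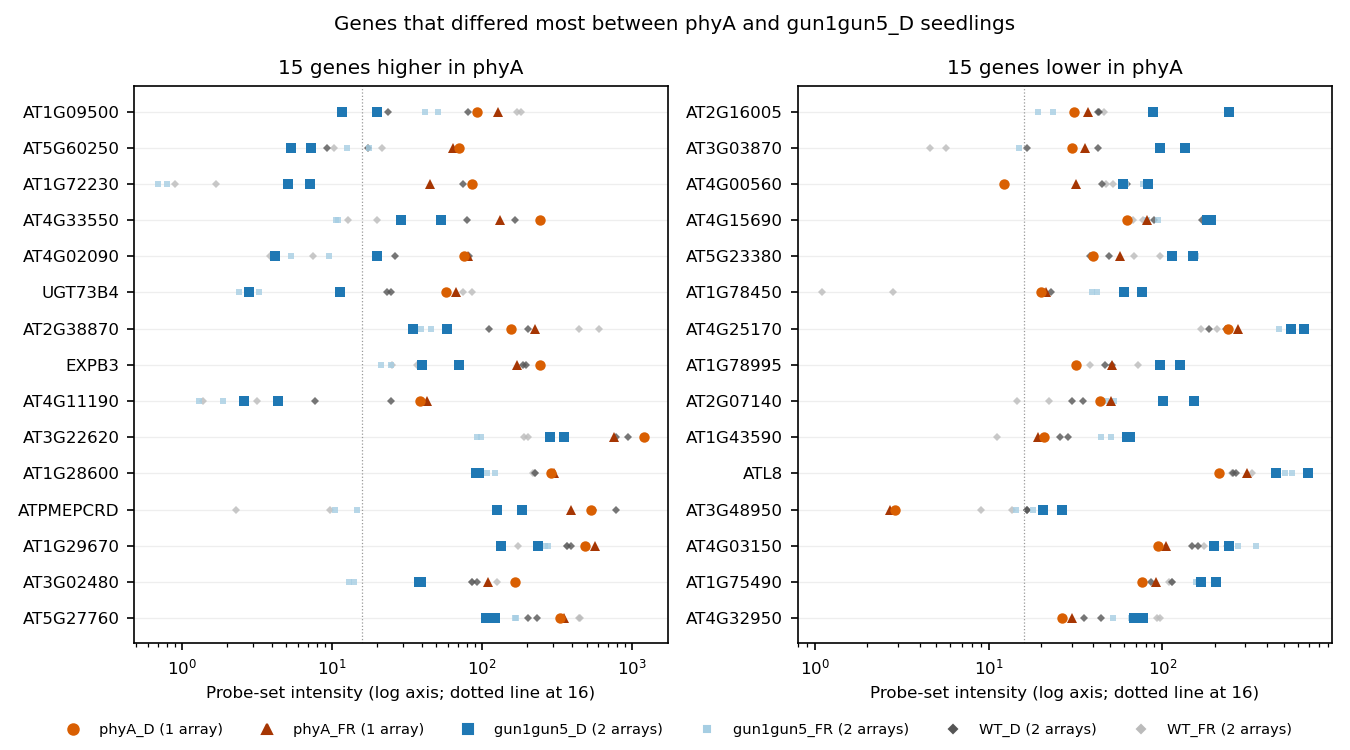
Probe-set intensity on a log axis of the 15 named genes with the largest difference in each direction, each point 1 array, with phyA in orange and dark red, gun1gun5_D in blue and the other arrays as small symbols. In all 30 genes the phyA and gun1gun5_D symbols do not overlap. The genes were chosen for wide differences between these arrays, and 49.8% of all probe sets do not overlap either. AT1G72230, ATPMEPCRD and EXPB3 have both WT_D arrays near or above phyA.

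Genes for the proteins of the cytosolic ribosome, which carries out protein synthesis outside the organelles, read higher in phyA in most cases. Of 132 probe sets 18 passed and were higher (13.6%, against 2.26% of all probe sets), and none passed as lower. The median difference was 0.44, against 0.004 over all probe sets, and 122 of the 132 differences were positive. Both phyA arrays stood above both gun1gun5_D arrays for 114 of the 132, against 25.7% of all probe sets. The differences of the 18 ran from 0.48 to 1.09.

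AT5G02450, a protein of the large subunit (L36 type), read 567.0 in phyA_D and 696.0 in phyA_FR against 270.0 and 305.4 in gun1gun5_D, a difference of 1.09 ± 0.20 or 2.13-fold (limma adjusted p = 0.0303). It did not overlap, but both phyA values lay below the 4 arrays with far-red in wild type and gun1gun5, at 760.1 to 929.2. AT3G16080 (L37 type) read 723.3 and 776.2 against 386.7 and 371.6, a difference of 0.95 ± 0.15. AT4G29410 (L28 type) read 517.6 and 517.6 against 299.6 and 237.5 (0.92 ± 0.19), and AT5G56710 (L31 type) 709.0 and 669.1 against 358.4 and 388.6 (0.86 ± 0.16).

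The place of phyA among all arrays was in the middle for this group. The median log2 level of the list was 9.06 in phyA_D and 9.07 in phyA_FR, 8.39 and 8.48 in gun1gun5_D, 8.70 and 9.02 in WT_D, 9.01 and 9.12 in gun1gun5_FR and 9.14 and 9.56 in WT_FR. The gun1gun5_D arrays were thus the lowest of the 10. Both gun1gun5_D arrays read below all 8 others for 75 of the 132 probe sets, against 5.23% of all probe sets, while the phyA arrays read above all 8 others for 0 of the 132. The median difference from gun1gun5_D was 0.33 for WT_D and 0.45 for gun1gun5_FR. These share the gun1gun5_D arrays with the phyA comparison, so they are not independent of it.

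The list's median held without each compared array, at 0.42 to 0.47, but single calls did not. Without gun1gun5_D replicate 1 none of the 132 passed in limma, with 74 at an unadjusted p under 0.05 in the higher direction, and without phyA_D none, with 61. Without gun1gun5_D replicate 2 or phyA_FR 1 passed, and without either gun1gun5_FR array 2. Without WT_FR replicate 1 or 2, 33 and 31 passed. With probe sets under the 40th percentile of mean level left out, 49 of 118 passed. The ratio of 3′ to 5′ controls and the 25S control differed between the compared arrays as given above, and their part in this group was not tested. Many ribosomal proteins have near-identical gene copies, whose probe sets may share signal. By their suffix, 0 of the 132 probe sets were marked as matching other transcripts too, and 6 of the 132 read under 16 on all arrays.

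**Figure D4:**
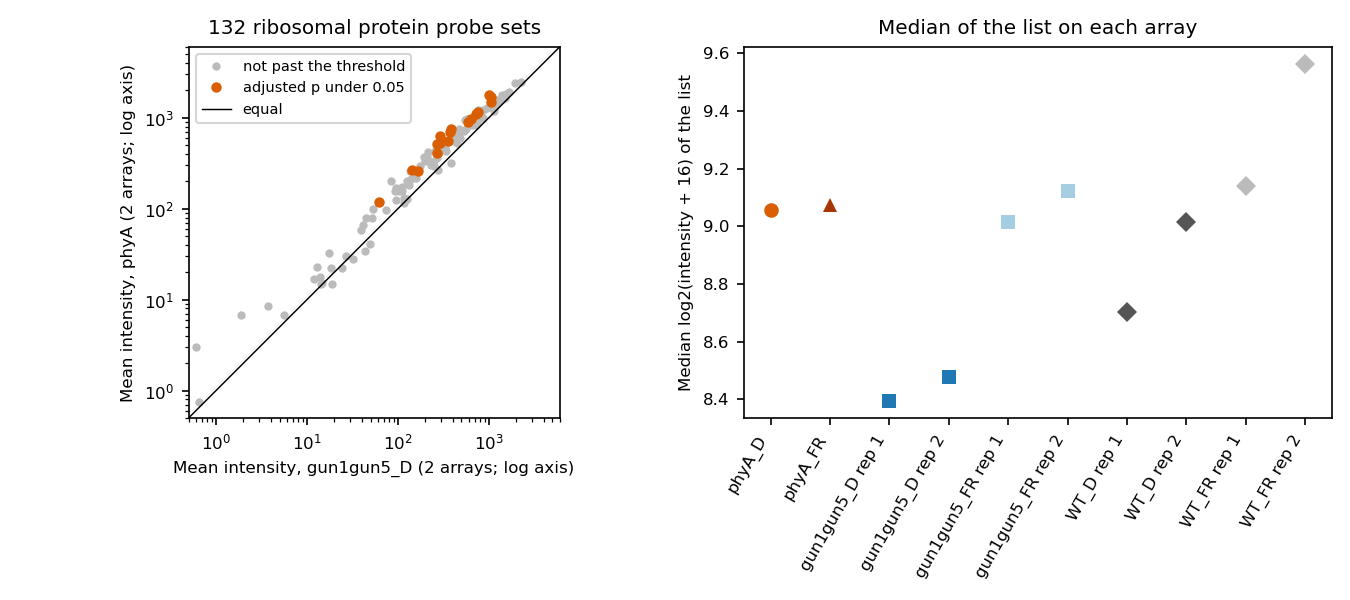
Left, mean intensity of 132 ribosomal protein probe sets in phyA (y) against gun1gun5_D (x), log axes, with the 18 that passed in orange and a line of equality. Right, the median log2(intensity + 16) of the list on each of the 10 arrays; gun1gun5_D is lowest at 8.39 and 8.48, and phyA stands at 9.06 and 9.07.

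Among the named genes lower in phyA, AT2G16005, of the MD-2-related lipid-recognition type, had the largest, -1.71 ± 0.35 (limma adjusted p = 0.0395). It read 30.8 in phyA_D and 37.3 in phyA_FR against 88.4 and 240.1 in gun1gun5_D, and between 19.3 and 45.9 on the other 6 arrays. The gun1gun5_D arrays were thus the high ones, and far from each other. Without gun1gun5_D replicate 2 the difference of AT2G16005 was -1.06 (limma adjusted p = 0.0556), and its call also ended without phyA_D (0.155) or phyA_FR (0.120).

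AT4G25170, of no function known here, read 238.0 and 271.4 in phyA against 651.8 and 549.8 in gun1gun5_D and 466.9 and 563.3 in gun1gun5_FR, with wild type at 167.0 to 231.0 (-1.19 ± 0.16, limma adjusted p = 0.0127). All 4 gun1gun5 arrays were above the rest. AT1G78450, of the SOUL heme-binding type, showed the same order, at 19.9 and 21.3 against 76.2 and 60.3 in gun1gun5_D and 41.9 and 39.2 in gun1gun5_FR (-1.20 ± 0.13, limma adjusted p = 0.00939). ATL8, a RING-H2 ubiquitin ligase, read 210.3 and 308.7 against 686.1 and 448.6 (-1.08 ± 0.23), and AT5G23380 39.9 and 56.7 against 150.5 and 113.4 (-1.20 ± 0.20). AT1G43590, AT1G75490 and AT1G78995 also had all 4 gun1gun5 arrays above the rest, with differences of -1.15 ± 0.16, -1.0 ± 0.15 and -1.16 ± 0.26. AT1G75490 is of the DREB type of drought-related transcription factors.

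For 4 of the 15 the phyA arrays were instead below all 8 others. AT4G03150 read 94.6 and 104.6 in phyA and from 148.8 upward elsewhere, with 243.1 and 197.4 in gun1gun5_D (-1.03 ± 0.17, limma adjusted p = 0.024). AT3G48950, of the pectin-lyase-like type, read 2.9 and 2.7 in phyA and 26.3 and 20.5 in gun1gun5_D, at least 1.46-fold lower in phyA. AT4G32950, a type 2C protein phosphatase, read 26.4 and 30.2 against 76.9 and 68.2 (-1.0 ± 0.14). AT4G00560 read 12.2 and 32.0 against 82.8 and 59.3 (-1.23 ± 0.26), so its phyA arrays differed from each other.

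In AT3G03870, AT4G15690 and AT2G07140, as in AT2G16005, both gun1gun5_D arrays were above all 8 others. AT4G15690, a glutaredoxin, a small redox enzyme, read 62.9 and 81.3 in phyA and 190.7 and 181.2 in gun1gun5_D (-1.20 ± 0.24), and 67.8 to 169.6 on the other arrays, the highest of which was WT_D replicate 2. AT3G03870 differed by -1.42 ± 0.29 and AT2G07140 by -1.15 ± 0.19, the latter on a probe set marked by its suffix as matching other transcripts too. Of these 15 lower genes 1 passed without gun1gun5_D replicate 1 (AT2G16005, limma adjusted p of 0.015 to 0.22 over the 15), 10 without replicate 2 (0.027 to 0.13), none without phyA_D (0.057 to 0.19) and 5 without phyA_FR (0.042 to 0.12). All 15 kept their direction and an unadjusted p under 0.05 in these 4 fits. Without gun1gun5_FR replicate 1 or 2, 7 passed (up to 0.08), without either WT_D array 11 (up to 0.0658) and without either WT_FR array 12 (up to 0.0578). AT2G16005, AT3G03870, AT4G15690 and AT1G78995 did not pass with 6 groups (up to 0.0595), AT1G78995 and ATL8 not without a variance trend (up to 0.0545), AT3G03870 not with a pseudocount of 1 (0.0566) and AT2G16005 not with one of 64 (0.0554).

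Among nuclear genes of the photosystems and of chlorophyll synthesis, those that passed were lower in phyA. LPA19, an assembly factor of photosystem II, read 158.7 in phyA_D and 154.4 in phyA_FR against 225.5 and 291.2 in gun1gun5_D, a difference of -0.66 ± 0.14 (limma adjusted p = 0.0395). The phyA arrays were the lowest of the 10 and the 4 gun1gun5 arrays the highest. AT2G28605, of the PsbP family of the thylakoid lumen, differed by -0.48 ± 0.11 at 127.6 and 117.5 against 189.4 and 166.4. Both were lower and none was higher of 15 nuclear genes of photosystems, antennae and the thylakoid ATP synthase (13.3%, against 1.58% of all probe sets), with a median of -0.08 and 12 of 15 differences negative. The antenna proteins did not pass, with LHCB4.2 at -0.39 ± 0.15 (limma adjusted p = 0.194) and LHCB4.1 at -0.08 ± 0.11. LHCB4.3 went the other way, at 0.27 ± 0.31, and its groups overlapped (590.0 and 363.2 in phyA against 276.8 and 521.2).

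CHLM, the methyltransferase that follows the GUN5 step in chlorophyll synthesis, was lower in phyA, at 1253.1 and 1172.1 against 1791.5 and 1643.8 (-0.50 ± 0.10, limma adjusted p = 0.0379). The gun1gun5_FR arrays read 1607.0 and 1572.6, and all 4 gun1gun5 arrays stood above the 6 others. It was the only member of 6 tetrapyrrole genes to pass (16.7%, against 1.58% of all probe sets lower), and the list's median was -0.28. CHLI2, another subunit of the magnesium-inserting enzyme, did not pass at 95.1 and 120.3 against 130.0 and 138.9 (limma adjusted p = 0.185), and the phyA arrays were the lowest of the 10. PORB, which makes chlorophyllide in light, overlapped at 193.7 and 346.2 against 434.1 and 230.5. CHLI2 and PORB, like LHCB4.1, LHCB4.2 and LHCB4.3, were chosen after their values were seen.

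Of the 69 probe sets for genes of the plastid genome 1 was higher (1.45%, below the 2.26% of all probe sets) and none lower, with a median of 0.09. This was rps15, a plastid ribosomal protein, at 262.9 in phyA_D and 335.3 in phyA_FR against 102.6 and 132.2 in gun1gun5_D and 57.1 to 117.7 on the other 6 arrays. The phyA arrays stood above all others, a difference of 1.24 ± 0.19 (limma adjusted p = 0.0195). For the 6 nuclear genes of plastid gene expression all differences were negative, with a median of -0.20, and none passed in limma while 2 had an unadjusted p under 0.05. The 18 mitochondrial genes had a median of 0.11, none passed, and 1 had an unadjusted p under 0.05.

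Of LPA19, AT2G28605, CHLM and rps15, none passed without gun1gun5_D replicate 1, phyA_D or phyA_FR (limma adjusted p of 0.065 to 0.22 over these fits), and only rps15 passed without gun1gun5_D replicate 2 (0.04 to 0.121) or without a gun1gun5_FR array (0.046 to 0.083). AT2G28605 did not pass without a WT_D array (0.0562 and 0.0563), nor it and LPA19 without a WT_FR array (up to 0.0519), nor AT2G28605 with the replicate number as a block (0.0572) or a pseudocount of 64 (0.0507). The 4 kept their direction and an unadjusted p under 0.05 in the fits without a compared array. With phyA_FR and phyA_D as groups of their own, again only rps15 passed (0.027 to 0.062).

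**Figure D5:**
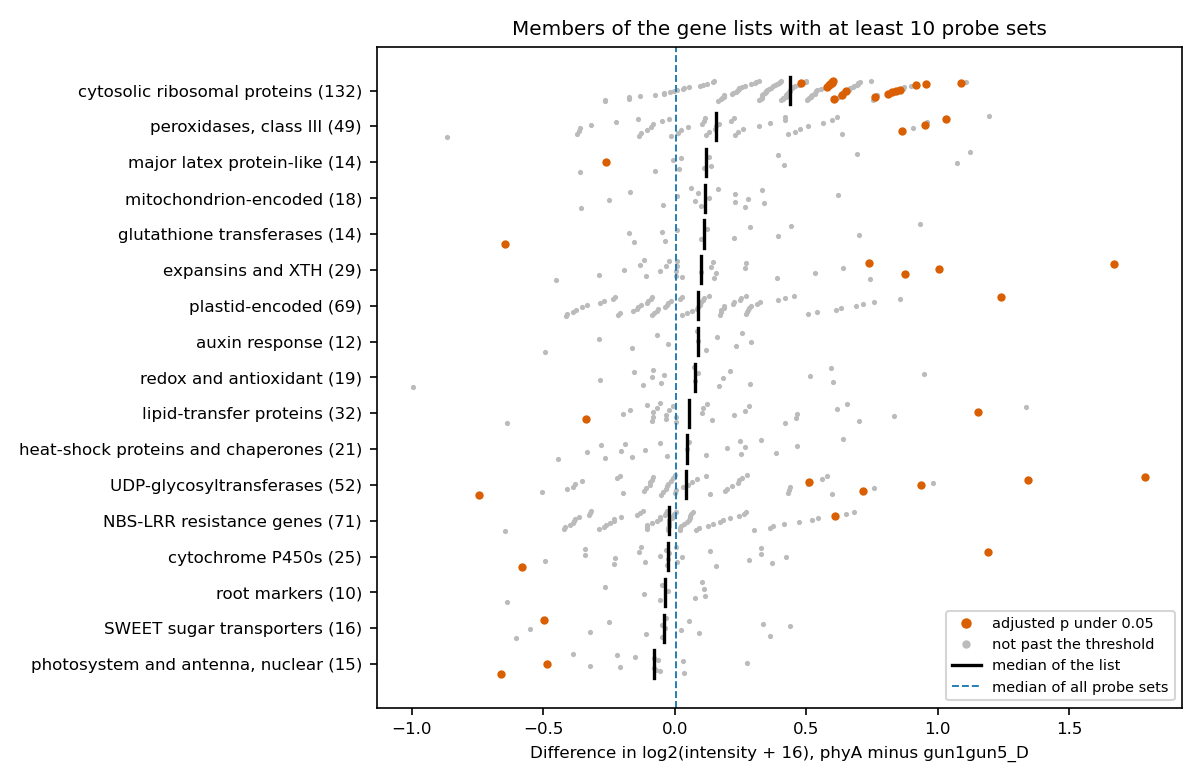
Differences in log2(intensity + 16), phyA minus gun1gun5_D (x), of the members of each list with at least 10 probe sets (y, with the number of members). Orange points passed, grey points did not, black bars are list medians and the dashed line is the median of all probe sets, 0.004; ribosomal proteins have the highest median, 0.44, of the lists drawn.

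Other lists held few or no genes that passed. SWEET11, a sucrose transporter, was the only one of 16 SWEET probe sets to pass (6.25%, against 1.58% of all probe sets lower). It read 1007.1 and 1078.2 in phyA against 1417.7 and 1541.1 (-0.50 ± 0.09, limma adjusted p = 0.0285). COR15A, a cold-induced plastid protein, passed as higher by 0.61 ± 0.09, but all its values were under 16. They were 14.3 and 11.9 in phyA against 3.2 and 2.9 in gun1gun5_D, so no fold is given. COR15A was the only member of the 5 clock and cold genes to pass (20%, against 2.26% of all probe sets higher). The other 4 members had negative differences, and the list's median was -0.50. Of 71 resistance genes of the NBS-LRR type 1 was higher, AT5G43740, by 0.61 ± 0.13 (1.41%, below the 2.26% of all probe sets). Of 14 major-latex-protein-like probe sets 1 was lower (7.14%, against 1.58% of all probe sets). This was AT1G14930, with values of 5.4 or less on all arrays. AT5G43740, SWEET11, COR15A, AT2G15325 and AT1G14930 passed in none of the 4 fits that left out a compared array (limma adjusted p of 0.051 to 0.198), and COR15A alone passed without a gun1gun5_FR array (0.043 to 0.08). Without either WT_D array SWEET11 and COR15A passed (0.028 to 0.057), and without either WT_FR array all but AT1G14930 (0.016 to 0.051). With 6 groups SWEET11 and COR15A passed (up to 0.0621 over the 5), AT5G43740 did not pass with quantile normalization (0.0506), and AT2G15325 and AT1G14930 did not without a variance trend (up to 0.104) or with a pseudocount of 1 (up to 0.0547).

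None of 21 heat-shock proteins and chaperones passed in limma (4 at an unadjusted p under 0.05, median 0.05), and none of 19 redox genes (4, median 0.08), 12 auxin-response genes (1, median 0.09) or 7 WRKY transcription factors (1, median 0.06). The same held for 7 pathogenesis-related genes (2, median 0.10), 3 Calvin-cycle genes (0, median -0.19), 3 flavonoid genes (2, median 0.75) and 4 genes of phytochrome signalling and light response (0, median -0.14). AT4G15690, the glutaredoxin that passed as lower in phyA (-1.20 ± 0.24), was not matched to the list of redox genes. Of the flavonoid genes, DFR, which makes anthocyanin precursors, read 102.3 and 58.3 in phyA against 34.4 and 46.0 (0.75 ± 0.25, limma adjusted p = 0.131), and UF3GT, chosen after its values were seen, 82.8 and 49.3 against 33.3 and 29.8. The lists of glucosinolate, jasmonate, seed-oil and nitrate genes, with 3, 2, 2 and 2 members, had none that passed and none at an unadjusted p under 0.05. Over all 22746 probe sets tested, 4812 had an unadjusted p under 0.05 in the same limma fit. Counts of this kind for any list are to be read against that share.

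Markers of the tissues in a whole seedling were measured on all arrays. RCA, the rubisco activase of green tissue, read 3391.4 and 3420.9 in phyA and 3492.0 and 3677.3 in gun1gun5_D (-0.07 ± 0.10, limma adjusted p = 0.738). PYK10, a root beta-glucosidase, read 3268.7 and 3127.7 against 2788.8 and 3135.4. The summed level of the 10 root markers was 3488.2 and 3416.6 against 3065.4 and 3398.4, with 3 of the 10 under 16 on all arrays, and most of this sum was PYK10. The median log2 level of the 10 was 5.30 and 5.07 in phyA against 5.49 and 5.55, lower on both phyA arrays, and 6 of the 10 differences were negative, with a median of -0.04. None of the 10 passed in limma, and 1 had an unadjusted p under 0.05, in the lower direction. The summed level of the 6 seed markers was 743.9 and 614.2 in phyA against 466.3 and 535.7, higher on both phyA arrays. None of the 6 read under 16 on all arrays. Most of this sum was AT2G44060, at 480.6 and 399.2 against 308.0 and 365.1 (limma adjusted p = 0.112). Of the 6 differences 4 were positive and 2 negative, with a median of 0.30. None of the 6 passed in limma, and 2 had an unadjusted p under 0.05. Among the 2 was LEA18, chosen after its values were seen, at 67.2 and 72.0 against 22.8 and 27.0 (1.07 ± 0.28, limma adjusted p = 0.0706). AT3G02480, of the LEA type, which passed as higher in phyA (1.46 ± 0.20), was not matched to the list of seed markers. In RNA of whole seedlings, fewer cells of a type and less RNA per cell cannot be told apart. AOP3, a gene whose activity differs between accessions, read 10.6 or less on all 10 arrays.

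The phyA arrays were pooled although 1 had received far-red. Between them 78 probe sets differed by 2-fold or more, 54 higher in phyA_FR and 24 lower, against 104 between the gun1gun5_D arrays, and the SD of the differences was 0.259 and 0.263. With 1 array per pretreatment this has no test. The widest gap among named genes was COR27, a gene induced by cold and under the circadian clock, at 165.2 in phyA_FR and 17.6 in phyA_D. The gun1gun5_D arrays differed in the same gene, at 232.9 and 44.6, and gun1gun5_FR read 567.8 and 506.3, WT_FR 222.6 and 249.5 and WT_D 28.7 and 17.6. So the phyA and gun1gun5_D groups overlapped, and their difference was -0.65 ± 0.79 (limma adjusted p = 0.709).

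AT4G33980, on the same list of clock and cold genes, read 75.4 in phyA_FR and 16.7 in phyA_D, and 127.6 and 25.7 in gun1gun5_D. AT1G56300 read 328.6 and 103.8, and 327.6 and 124.8. In both, 1 array of each genotype was high and 1 low. In the other direction EXPA8 read 66.3 in phyA_FR and 162.7 in phyA_D, and OCT1, an organic cation and carnitine transporter, 9.5 and 39.2. COR27, AT4G33980, AT1G56300, EXPA8 and OCT1 were chosen after their values were seen, from the 16 named genes with the widest gap between the phyA arrays. With phyA_FR and phyA_D as separate groups in the fit, 566 probe sets passed, 512 of them among the 874.

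The 874 probe sets could be placed by where the compared arrays stood among all 10. For 409 (46.8%) all 4 gun1gun5 arrays, with and without far-red, lay above or below all 6 others, against 7.82% of all probe sets; in 219 of them phyA was the higher. For 278 (31.8%) both phyA arrays lay beyond all 8 others, against 7.78%, in 156 of them above. Both held for 94 and neither for 281. For 328 (37.5%) both gun1gun5_D arrays lay beyond all 8 others, against 10.7%. Passing the test already selects probe sets whose groups stand apart, so these shares describe the 874 and are not set against chance.

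The widest differences were at probe sets that the tables used here do not list with a gene. Probe set 264508_at read 1.4 and 1.4 in phyA and between 174.5 and 292.5 on the other 8 arrays, with 292.5 and 271.5 in gun1gun5_D, so phyA was at least 17.6-fold lower (-4.10 ± 0.14, limma adjusted p = 2.17e-05). Probe set 259224_at read 923.3 and 1023.5 in phyA against 133.8 and 119.6 in gun1gun5_D and 100.4 to 192.1 on the other 6 arrays (2.79 ± 0.15, limma adjusted p = 0.000266). In both, the phyA arrays stood alone. Probe set 262518_at instead set all gun1gun5 arrays, at 46.0 to 54.2, apart from phyA at 334.5 and 328.9 and wild type at 294.8 to 555.5 (2.48 ± 0.13). Probe set 247095_at read 123.8 and 92.9 in phyA against 528.6 and 514.7 in gun1gun5_D, and 67.9 to 180.4 elsewhere (-2.12 ± 0.21). The first 3 passed without any 1 of the compared arrays, and 247095_at did not pass without gun1gun5_D replicate 1 (-2.10, limma adjusted p = 0.0589).

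In all, 12 probe sets passed in each of the 4 fits that left out 1 compared array. Of these 4 had a named gene, AT5G27760, AT1G28600, UGT73B4 and AT2G28780, and 8 did not. AT2G28780 read 17.0 and 16.1 in phyA and under 1 on both gun1gun5_D arrays, at least 1.03-fold higher, and 24.6 and 28 in WT_D. The values of AT2G28780 lay near the bottom of the scale, and it was chosen for being among the 12.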

How the data were processed

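RNA of 10 samples was measured on single-colour ATH1 arrays, 2 for each wild-type and gun1gun5 condition and 1 for each phyA condition. The deposited values are linear probe-set intensities that the authors had scaled to a mean of about 100 without the lowest and highest 2%, as found from the values; the summarisation software is not given in the sources used here. Between 28.9% and 32.3% of an array's values were under 16. No detection calls were used, and the number of arrays limits the precision.

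Values were transformed to log2(value + 16), and 22746 probe sets were fitted without a filter as 5 groups, phyA being 1 group, with limma 3.58.1 in R 4.3.3 (moderated variances with a trend, 5 residual and 3.40 prior degrees of freedom, two-sided, Benjamini-Hochberg adjustment). Names came from the platform table and RefSeq (TAIR10.1): 13513 probe sets matched 1 gene, 503 several and 8730 none. These tables give no functions for genes known by locus number alone; their family is given as background. Named genes were, among probe sets with 1 gene that passed, the 15 with the largest difference in each direction and up to 4 from each of 33 lists, or the 2 with the highest level where none of a list passed; of several probe sets of a gene, the one with the highest level was named. Members and lists were chosen with earlier results of these data known, and 11 lists were extended from locus numbers after the files had been opened. The fitting code was tested on simulated data, with changes placed only in probe sets above the median level. There 75% of changes of 1 in log2 and 98% of changes of 2 passed, and 5.46% of the calls were false. The alternatives were pseudocounts of 1 and 64, quantile normalization, filters at the 40th and 60th percentile, no trend, 6 groups, the compared arrays alone, a block for the replicate number, a minimum of 2-fold and each array left out.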

Additional observations from a re-analysis of the deposited data

How the results depend on the processing

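The 30 most different named genes kept their direction under every alternative that tested them. They were chosen for wide differences between these same arrays, whose groups did not overlap, so this is no separate support. The counts moved. Leaving out probe sets under the 40th or 60th percentile of level gave 1549 calls (859 higher, 690 lower) and 1402 (696 lower), with 49 and 55 ribosomal proteins; fewer probe sets were tested there. With 6 groups 566 passed (216 lower), with 10 ribosomal proteins. With the 4 compared arrays alone 3 passed (2 higher, 1 lower), with 0 ribosomal proteins and 94 at an unadjusted p under 0.05 in the higher direction. A 2-fold minimum left 175 (150 higher, 25 lower). Over fits without 1 array the calls ranged from 18 to 932, the higher from 14 to 538, the lower from 4 to 395 and the ribosomal proteins from 0 to 33. Pseudocounts of 1 and 64, quantile normalization and no trend gave 1032, 801, 777 and 815 calls. The cause of these shifts was not tested, beyond the smaller number of arrays or probe sets.

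With the replicate number as a block 1303 passed (758 higher, 545 lower; 770 of the 874), with 46 ribosomal proteins. The arrays numbered alike deviated together at r = 0.051 to 0.137 over 6 pairs of groups, of which 1 exceeded 0.1, so the numbers were not taken as pairs, and both phyA arrays carry number 1.

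Of the genes named by the lists, 11 that had not passed changed sign somewhere, at 20 values with adjusted p of 0.613 or more. Quantile normalization gave RCA 0.0090, GTR2 0.014 and JMT -0.00020, a pseudocount of 1 JMT -0.063, and the block CHIL 0.042 and AT3G09440 -0.040. Without gun1gun5_D replicate 1 GTR2 was at 0.040; without replicate 2 CHIL was at 0.036, JMT -0.077 and HRGP1 -0.039. Over fits without 1 array, WRKY20 ranged from -0.16 to 0.059 (without gun1gun5_D replicates 1 and 2). Over the same fits WES1 ranged from -0.14 to 0.0013, CHIL from -0.61 to 0.33, AOP3 from -0.013 to 0.62, GTR2 from -0.092 to 0.086 and GTR1 from -0.42 to 0.010. AT3G09440 ranged from -0.039 to 0.15, JMT from -0.15 to 0.18, cox1 from -0.029 to 0.36 and HRGP1 from -0.23 to 0.38. In these last 9 the extremes came without phyA_D and without phyA_FR. Weak signals limit the rest, since 16 was added to every value.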

Other observations

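Further genes that passed belonged to detoxification, signalling and sugar metabolism; they were chosen after their values were seen. AER, an alkenal reductase that detoxifies reactive aldehydes, read 694.2 in phyA_D and 703.0 in phyA_FR against 239.3 and 311.0 in gun1gun5_D, a difference of 1.31 ± 0.18 (limma adjusted p = 0.0162). All 4 gun1gun5 arrays, at up to 426.7, were below the 6 others. BGLU28, a beta-glucosidase, was at least 3.10-fold higher in phyA, at 53.9 and 45.3 against 10.5 and 9.8, with WT_D at 13.8 and 47.5 and WT_FR at 55.9 and 59.7. JKD, a zinc-finger transcription factor of root patterning, was at least 2.55-fold higher, at 37.9 and 43.8 against 5.7 and 7.4, with WT_D at 55.9 and 38.8. AT5G57655, a xylose isomerase, was lower in phyA, at 377.5 and 406.5 against 755.2 and 701.0 (-0.87 ± 0.11, limma adjusted p = 0.0124), and all 4 gun1gun5 arrays were above the rest.

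Some differences of similar size did not pass; SAPX, CCS and GI were also chosen after their values were seen. SAPX, the stromal ascorbate peroxidase, read 268.7 and 266.9 in phyA against 104.7 and 163.0 (0.95 ± 0.26, limma adjusted p = 0.0781). CCS, the copper chaperone of superoxide dismutase, read 120.5 and 173.7 against 211.0 and 436.1 (-0.99 ± 0.40, limma adjusted p = 0.204). GI, a clock protein, read 126.3 and 206.0 against 333.9 and 268.8 (-0.83 ± 0.35, limma adjusted p = 0.223). ICL, the isocitrate lyase of seed-oil use, read 458.5 and 760.1 against 892.6 and 740.3, so its groups overlapped.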
